A study of Mus musculus with 6 samples.

Results

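The probes described here lie in 10 windows around imprinted genes, leaving out the H19 and Gnas loci. A probe belonged to the set when its start on mouse build mm9 fell inside a window, whatever its signal, and 340 of the 174638 non-control probes of the array (0.195%) did so. The windows are named after the genes they were set around: Kcnq1-Cdkn1c, Snrpn, Ndn-Magel2 and Peg3 on chromosome 7, Grb10 on chromosome 11, Peg10-Sgce and Mest on chromosome 6, Dlk1-Meg3 on chromosome 12, Igf2r-Airn on chromosome 17 and Nnat on chromosome 2. Pancreatic tissue of mouse offspring aged 12 weeks had been profiled by MeDIP-chip, in which an antibody pulls down methylated DNA and the product is hybridised beside the input DNA of the same sample. There were 3 arrays whose labels name maternal glucose intolerance (IGT in the following) and 3 that name normal glucose tolerance of the dam (NGT). Strain, diet, offspring sex and the way glucose intolerance arose in the dams are not given in the sources used here. Whether the 3 samples of each group are different animals or share a dam is not stated in the labels, and the p-values below then reflect only how far these samples spread, part of which may be technical. Pancreatic tissue holds acinar, ductal, islet and other cells, and an array on whole tissue cannot tell a change within cells from a change in their proportions.

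Imprinted genes are expressed mainly from the allele of a single parent. The parental alleles are told apart by DNA methylation that is laid down in the egg or the sperm at imprinting control regions and then kept in body tissues, so that such a region carries methylation on one allele and lacks it on the other. Several imprinted genes act in growth and metabolism: Grb10 encodes an adaptor that restrains insulin receptor signalling, Igf2r a receptor that clears the growth factor Igf2, Cdkn1c an inhibitor of the cell cycle, and Nnat a small membrane protein found in pancreatic beta cells. The array reads both alleles together, so it cannot assign a ratio to the maternal or the paternal copy.

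The promoters of Peg3, Mest, Nnat and Snrpn are printed because in each of these genes the promoter region is known to carry methylation on the maternal allele. Each window runs from 250 bases before to 50 bases after a transcription start of RefSeq on build GRCm38.p6, is written 5′ to 3′ on the strand of the gene, and has every CG in capitals, CG being the dinucleotide that is methylated in mammals. For Snrpn, with 4 annotated starts, and for Mest, with several, a window with the most CGs is shown. Another Mest window, at chr6:30733256-30733555, had 8 CGs.
Peg3: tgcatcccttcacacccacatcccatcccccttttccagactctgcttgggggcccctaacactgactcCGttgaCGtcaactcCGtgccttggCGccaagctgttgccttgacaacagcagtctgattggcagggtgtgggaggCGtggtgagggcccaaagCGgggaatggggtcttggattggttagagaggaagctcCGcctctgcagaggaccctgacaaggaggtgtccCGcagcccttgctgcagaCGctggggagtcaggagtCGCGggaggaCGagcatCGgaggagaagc
Mest: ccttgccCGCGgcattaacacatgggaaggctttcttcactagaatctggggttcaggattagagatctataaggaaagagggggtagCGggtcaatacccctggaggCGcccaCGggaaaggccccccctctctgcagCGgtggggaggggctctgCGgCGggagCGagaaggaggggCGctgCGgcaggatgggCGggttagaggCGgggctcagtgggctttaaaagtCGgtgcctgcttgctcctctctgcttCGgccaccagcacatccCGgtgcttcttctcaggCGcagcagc
Nnat: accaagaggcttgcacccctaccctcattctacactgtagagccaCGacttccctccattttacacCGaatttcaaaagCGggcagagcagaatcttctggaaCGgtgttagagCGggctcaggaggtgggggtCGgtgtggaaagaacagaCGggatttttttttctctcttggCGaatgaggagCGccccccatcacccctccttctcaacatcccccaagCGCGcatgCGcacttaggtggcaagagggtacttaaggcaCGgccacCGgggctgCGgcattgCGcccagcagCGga
Snrpn: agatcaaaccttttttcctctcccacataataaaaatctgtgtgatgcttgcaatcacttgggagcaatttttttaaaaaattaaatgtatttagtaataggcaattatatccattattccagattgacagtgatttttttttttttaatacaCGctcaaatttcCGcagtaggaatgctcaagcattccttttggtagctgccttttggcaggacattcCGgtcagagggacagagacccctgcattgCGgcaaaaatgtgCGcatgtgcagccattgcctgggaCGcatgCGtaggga

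These windows are at chr7:6730370-6730669 for Peg3 (minus strand), chr6:30737800-30738099 for Mest (plus strand), chr2:157559828-157560127 for Nnat (plus strand) and chr7:60005150-60005449 for Snrpn (minus strand), all on GRCm38.p6. The motif CG reads the same on both strands. It occurred 13 times in the Peg3 window, 17 times each in the Mest and Nnat windows, and 7 times in the Snrpn window. Of 32851 promoter windows of this length, 94.6% held at least 1 CG and the median was 7. At least 13 were found in 37.9% of them, at least 17 in 31.4% and at least 7 in 52.1%. Among the other matched genes the CG count was highest in a Grb10 window, at 45, a count reached by 1.93% of promoters. Igf2r had 34 (7.73% of promoters reach it), while the window of Airn, the non-coding RNA that overlaps Igf2r, had 3. Of the 15 genes that name the windows, 11 were matched in the promoter table, and Kcnq1, Cdkn1c, Peg10 and Sgce were not. The array coordinates are on mm9 and were not converted, so no promoter could be placed on a probe, and no probe below is assigned to a promoter, an exon or an intron.

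The measurement was log2 of MeDIP over input signal, set to 0 at the median probe of each array and called the ratio. Input DNA was well above background for 71.0% to 78.7% of all probes on the IGT arrays and for 85.5% to 92.4% on the NGT arrays. The IGT arrays shared one scan, NGT replicate 1 had a scan of its own and NGT replicates 2 and 3 shared another, so scan and group cannot be told apart. The red channel, which read the MeDIP DNA, was scanned at 359 V for the IGT arrays, 394 V for NGT replicate 1 and 421 V for NGT replicates 2 and 3. The ratio was higher in IGT by 0.13 log2 units at the median of all tested probes, a shift against which the values below should be read. The number of arrays limits the precision of each mean.

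A probe was kept when its input signal was well above background on all 6 arrays, which held for 232 of the 340 imprinted probes (68.2%, against 66.4% of all probes). The dim input was uneven between the groups: 106 of the 340 probes were dim on at least 1 IGT array and 63 on at least 1 NGT array. Losses differed between windows. Kcnq1-Cdkn1c kept 95 of 126 probes, Dlk1-Meg3 44 of 59, Ndn-Magel2 22 of 31, Peg3 18 of 25, Igf2r-Airn 14 of 23 and Nnat 13 of 18. Grb10 kept 10 of 15, Mest 8 of 17 and Peg10-Sgce 6 of 11, while Snrpn kept only 2 of 15.

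The Snrpn window, set around a gene for a spliceosomal protein in the region tied to Prader-Willi syndrome in humans, was therefore almost unmeasured. Its 15 probes covered chr7:67118818-67151222, and on each array 2 or 3 of them had MeDIP signal well above background. Of these probes 11 were 60 nt long, the longest used. The kept probe at chr7:67149548-67149592 had ratios of -1.10, -0.80 and -0.31 in IGT and -0.63, -0.87 and -0.56 in NGT, and the groups overlapped. The other, at chr7:67150096-67150140, had 0.99, 0.76 and 0.81 against 0.69, 0.54 and 0.33. Every IGT array was higher there, but the difference of 0.34 had an adjusted p of 0.458 in limma. These probes thus lay on opposite sides of the array median on every array.

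Probe length went with signal across all windows, an aspect looked at after the values had been seen. Of the 176 imprinted probes of 45 nt, 18.8% had dim input, and the kept ones had a median ratio of 0.50. For the 132 probes of 46 to 59 nt these values were 34.8% and -0.29. Of the 32 probes of 60 nt, 90.6% were dim and the 3 kept ones had a median of -0.73. The whole array showed the same order, with 18.4%, 38.7% and 77.3% dim and medians of 0.35, -0.55 and -1.86. A ratio level is thus tied to the design of its probe, and levels of different places are given as descriptions only.

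To describe places rather than single probes, kept probes with starts at most 500 bases apart were joined into runs of at least 3, and the ratio of a run was the mean over its probes. The imprinted windows held 38 runs with 204 probes, of 18562 runs on the array, and 28 kept probes lay outside runs. The median ratio of the 38 runs was 0.02 (SD between runs 0.53), against -0.04 (SD 0.70) for all runs. On all 6 arrays 11 runs lay above the array median (28.9%, against 29.2% of all runs) and 8 lay below it (21.1%, against 36.0%). The other 19 had both signs. In the highest 10% of all runs there were 5 imprinted runs, and in the lowest 10% there was 1. The 38 runs, then, spread about the middle of the array, with few at its low end.

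**Figure D1:**
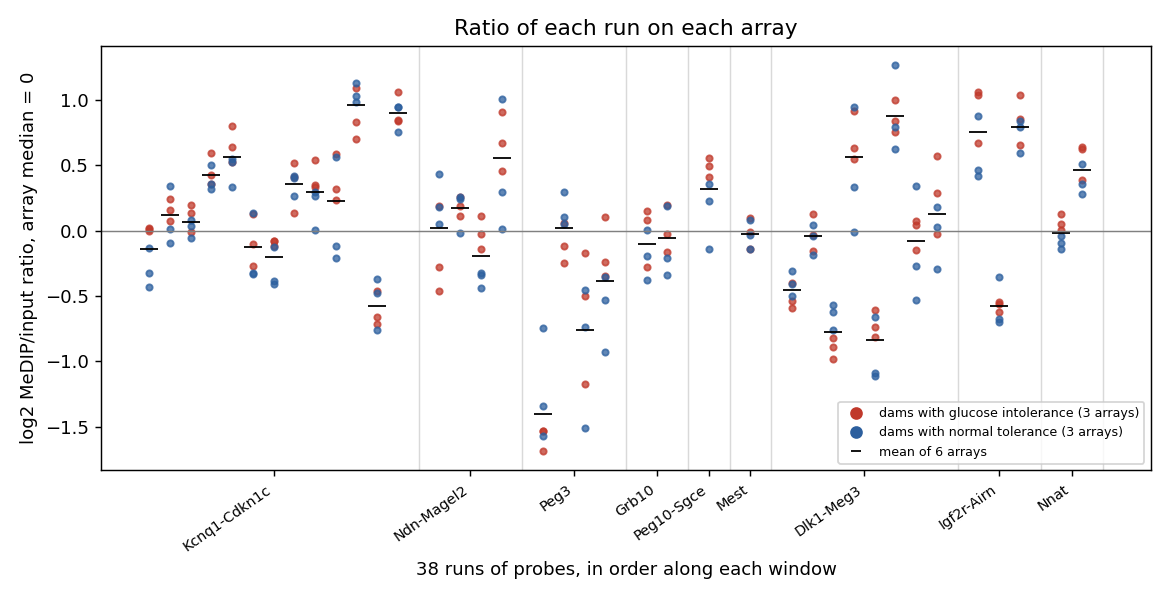
Ratio (log2 MeDIP over input, array median at 0; vertical axis) of each of the 38 runs on each array, in order along each window (horizontal axis); red points are the 3 IGT arrays, blue points the 3 NGT arrays and black bars the mean of 6. Run means lie between -1.40 and 0.96, and differences between the groups within a run between -0.41 and 0.44.

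The highest ratio lay in the Kcnq1-Cdkn1c window, which spans chr7:150085373-150736137 and is named after a potassium channel gene and the cell-cycle inhibitor. Its run at chr7:150647473-150648230 (4 probes) had ratios of 1.09, 0.83 and 0.70 in IGT and 1.13, 0.99 and 1.03 in NGT, at percentile 98.2 of all runs. The groups overlapped, at 0.87 ± 0.20 against 1.05 ± 0.07 (SD, n = 3 each). A further run at chr7:150734453-150735409 (4 probes) was almost as high, at 0.92 ± 0.13 in IGT and 0.88 ± 0.11 in NGT. Between them lay a low run of 11 probes at chr7:150659130-150661227, with -0.61 ± 0.13 and -0.54 ± 0.20. The step from the first of these runs to the low one was -1.89 to -1.30 log2 units on the 6 arrays, and the step up to the last was 1.13 to 1.73. Mean ratios of their single probes overlapped, at -2.58 to 0.99 in the low run. They were 0.12 to 1.64 in the first run and -0.11 to 1.93 in the last. MeDIP spots of the low run were well above background for 31 of 33 in IGT and 30 of 33 in NGT.

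The Dlk1-Meg3 window holds a gene for a Notch-like membrane protein and a long non-coding RNA gene, and its control region is known for methylation on the paternal allele. High and low runs alternated along it. The run at chr12:110840860-110841739 (5 probes) had ratios of 1.01, 0.84 and 0.76 in IGT and 1.27, 0.79 and 0.63 in NGT, at percentile 97.1. The next run, at chr12:110842197-110842652 (3 probes), began 458 bases on. Its ratios were 0.05, -0.15 and 0.07 in IGT and 0.34, -0.27 and -0.53 in NGT. The drop between the neighbours was present on all 6 arrays, with a mean step of -0.96 ± 0.16 (SD, n = 6 arrays) and a range from -1.16 to -0.68. Mean ratios of their single probes overlapped, at 0.45 to 1.59 in the first run and -1.29 to 0.55 in the second. The probe between them, at 110841978, was left out for dim input, at a mean ratio of 1.21. Joined over gaps of up to 1000 bases, these runs merged at a ratio of 0.51. Upstream, the run at chr12:110833128-110834872 (7 probes) was low on every array, at -0.72 ± 0.11 in IGT and -0.95 ± 0.26 in NGT. Its step up to the high run was 1.72 ± 0.36. MeDIP spots of the low run were well above background for 19 of 21 in IGT and 15 of 21 in NGT. Its probe at 110834818 had a mean ratio of -4.67, with MeDIP signal well above background on 1 IGT array and 0 NGT arrays. The other probes of this run lay between -1.16 and 0.99, so its low mean and the step rest in part on that probe.

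In the Igf2r-Airn window the 3 runs also alternated. The run at chr17:12962074-12963069 (5 probes) had ratios of 1.04, 0.86 and 0.66 in IGT and 0.80, 0.84 and 0.60 in NGT, at percentile 95.7. The run at chr17:12869101-12869734 (3 probes) was similar, with 1.06, 1.04 and 0.67 against 0.88, 0.46 and 0.42. In each of these runs the groups overlapped. The middle run at chr17:12933287-12934221 (4 probes) was low, at -0.58 ± 0.04 in IGT and -0.58 ± 0.19 in NGT. Mean ratios of its single probes ran from -1.84 to 0.82 and overlapped those of the high runs.

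The Peg3 window, set around a zinc finger gene, was the lowest on average. Its run at chr7:6648644-6649103 (3 probes) had the lowest ratio of the 38, with -1.68, -1.53 and -1.53 in IGT and -1.57, -1.34 and -0.74 in NGT. All 9 MeDIP spots per group were above background in it. The highest Peg3 run, at chr7:6658175-6658685 (3 probes), lay near the array median, at -0.10 ± 0.15 in IGT and 0.15 ± 0.13 in NGT. A run 466 bases on, at chr7:6659151-6659656 (3 probes), was lower, at -0.61 ± 0.51 and -0.90 ± 0.54. The mean step down to it was -0.78 ± 0.58. It was negative on all 6 arrays but ran from -1.61 on NGT replicate 1 to only -0.06 on IGT replicate 2. MeDIP spots of the lower run were well above background for 7 of 9 in IGT and 6 of 9 in NGT.

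**Figure D2:**
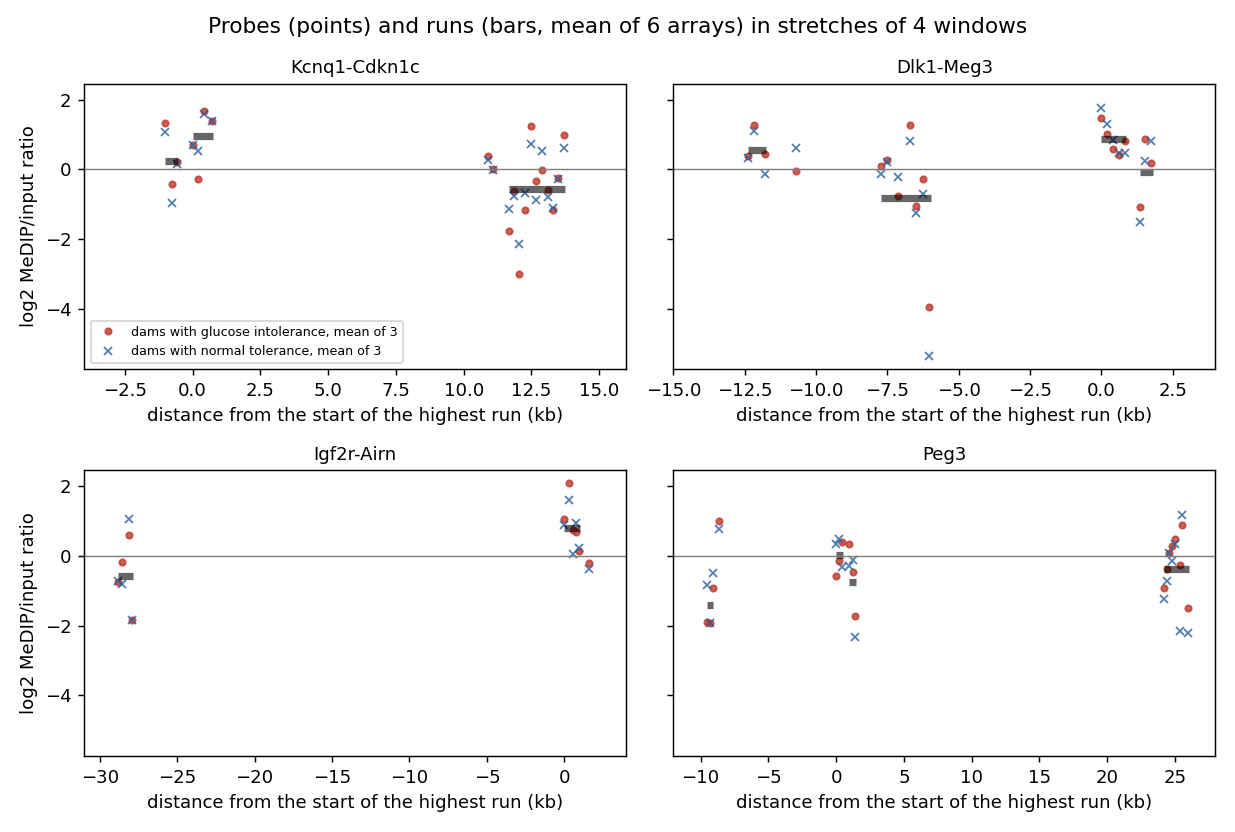
Ratio of single kept probes (red circles, mean of 3 IGT arrays; blue crosses, mean of 3 NGT arrays) and of runs (black bars, mean of 6 arrays) against distance in kilobases from the start of the highest run, in stretches of 4 windows. Runs of unlike mean ratio lie within a few kilobases of each other. In Dlk1-Meg3 the mean step between neighbours 458 bases apart is -0.96, although the ratios of their single probes overlap.

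Of the 29 steps between neighbouring runs within a window, 21 had the same sign on all 6 arrays (72.4%). Over the array the same held for 62.6% of 15746 steps between neighbours at most 200 kb apart. Steps of more than 1 log2 unit made up 8 of the 29 (27.6%), against 18.9% of all steps. The steps were examined after the values had been seen and are described without a test.

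In the remaining windows the highest runs were closer to the middle. The Ndn-Magel2 window, with a pair of genes of the MAGE family, reached 0.56 at chr7:69608941-69609434 (3 probes), where the arrays spread widely: 0.91, 0.46 and 0.67 in IGT and 1.01, 0.30 and 0.01 in NGT. In the Nnat window the run at chr2:157391616-157393105 (7 probes) had 0.64, 0.62 and 0.39 in IGT and 0.51, 0.28 and 0.36 in NGT. The only run of Mest, a gene for a hydrolase-like protein, was at chr6:30687625-30688485 (3 probes) and lay at the array median, at -0.02 ± 0.12 and -0.03 ± 0.11. The higher of the 2 Grb10 runs, at chr11:11937934-11938443 (3 probes), was at 0.004 ± 0.18 and -0.12 ± 0.28. The groups overlapped in each of these runs. Some levels turned with the choice of probes: with dim input probes included the Ndn-Magel2 run was at -0.34 and the Grb10 run at 0.64, and with runs joined over gaps of up to 1000 bases the Grb10 run was at 0.30. The highest runs of Kcnq1-Cdkn1c, Dlk1-Meg3 and Igf2r-Airn became lower but stayed above 0. They were at 0.73, 0.59 and 0.51 with dim input probes included, and at 0.66, 0.51 and 0.61 with the wider gap. In both settings the Kcnq1-Cdkn1c and Dlk1-Meg3 runs had merged with a lower neighbour, at 0.23 and -0.08 as reported. These values therefore describe longer runs.

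The design compares the offspring of dams with glucose intolerance with those of dams with normal tolerance. In limma with Benjamini-Hochberg adjustment over all probes, 0 of the 230 imprinted probes that could be tested passed an adjusted p of 0.05, the lowest being 0.162, and over the whole array 0.000865% of probes passed. At an unadjusted p under 0.05 there were 18 imprinted probes with a higher ratio in IGT (7.83%, against 10.3% of all probes) and 17 with a lower ratio (7.39%, against 5.53%). This split moved with the scaling: it was 8 higher and 26 lower after loess, 10 and 23 with arrays centred on the kept probes, 42 and 11 after normexp background correction and 34 and 19 in the authors' deposited table. The share of all probes at that p was 15.8% as reported, 16.3% after loess, 14.9% with that centring, 28.2% after normexp and 29.0% in the deposited table. For imprinted probes it was 15.2%, 14.8%, 14.3%, 23.0% and 22.8%, in the same order. All probes were not counted by direction under these alternatives, so the imprinted splits cannot be set against those of the array. The total of 35 imprinted probes (15.2%) was 16 without NGT replicate 3 (6.99%, against 8.90% of all probes) and 20 without IGT replicate 3 (8.70%, against 11.01%). It was 23 without IGT replicate 2 (10%, against 9.89%) and 66 without NGT replicate 1 (28.8%, against 28.5%). In all, 142 of the 230 probes were higher in IGT and 88 lower, or 61.7% higher against 62.8% of all probes. The median difference was 0.10 for the imprinted probes and 0.13 for all probes, so the imprinted probes shared the offset of the array. After loess both medians were below 0, at -0.045 and -0.019.

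For runs, 0 of 38 passed an adjusted p of 0.05 in limma (lowest 0.265), and 0% of all runs did. At an unadjusted p under 0.05 there were 3 imprinted runs, all higher in IGT (7.89%, against 13.3% of all runs), and 0 lower (2.51% of all runs). The 3 became 8 without NGT replicate 1, where 27.8% of all runs reached that p, and 1 without IGT replicate 2 (9.06% of all runs) or without IGT replicate 3 (10.3%). The ratios of the groups did not overlap in 7 runs that were higher in IGT (18.4%, against 17.5% of all runs) and in 1 that was lower (2.63%, against 4.55%). Differences ranged from -0.41 to 0.44 log2 units, with 29 runs higher and 9 lower. The median was 0.115 against 0.122 for all runs, and relative to the latter 18 runs were higher and 20 lower. These shares lie near or below those of the array.

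**Figure D3:**
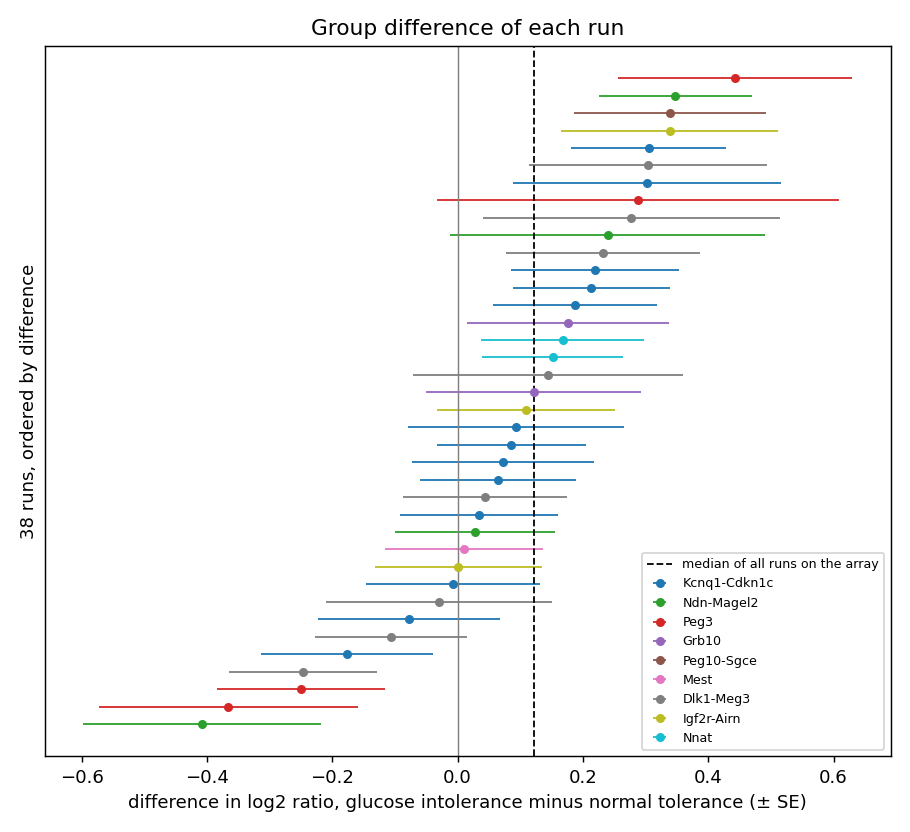
Difference in ratio (IGT minus NGT, log2 units, horizontal axis; bars are ± the standard error from limma) of the 38 runs, ordered by size (vertical axis) and coloured by window. The dashed line is the median of all runs on the array, 0.12; the runs lie on both sides of it, from -0.41 to 0.44.

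The largest window difference was that of Peg10-Sgce, named after a retrotransposon-derived gene and the gene of epsilon-sarcoglycan. The mean over its 6 kept probes was 0.58, 0.45 and 0.61 on the IGT arrays and 0.27, 0.06 and 0.45 on the NGT arrays. The groups did not overlap, though IGT replicate 2 and NGT replicate 3 were nearly equal. All 6 probes were higher in IGT, by 0.03 to 0.55, and 3 of the 6 exceeded the median shift of the array. The window mean differed by 0.29, or 0.15 beyond that shift, and lay between 0.14 and 0.38 under the alternatives run. Relative to the array medians and over the same spots, the MeDIP signal differed by 0.14 log2 units and the input by -0.03. Here and below each channel was set to its own array median. The channel differences therefore do not add up to the ratio difference. Over the 5 probes with a value on every array the window differed by 0.24. Its only run, at chr6:4696014-4697026 (5 probes), had 0.49 ± 0.07 in IGT against 0.15 ± 0.26 in NGT. The limma difference was 0.34 ± 0.15 (SE) with an adjusted p of 0.327.

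The window means of Nnat and Ndn-Magel2 did not overlap between the groups either. Comparable windows were not formed over the rest of the array, but 17.5% of all runs were apart with IGT higher. Nnat had 0.44, 0.41 and 0.29 in IGT and 0.28, 0.21 and 0.18 in NGT, a difference of 0.16 that was 0.004 after loess, 0.05 after quantile normalization and 0.09 over the probes with a value on every array. Ndn-Magel2 had 0.13, 0.15 and 0.09 against 0.003, -0.007 and 0.025, a difference of 0.12. Once the shift of the array is taken off, 0.02 and -0.02 remain, and Ndn-Magel2 was lower in IGT after loess (-0.04) and after quantile normalization (-0.02).

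In the other 7 windows the group means overlapped. Grb10 was at 0.17 ± 0.11 in IGT and -0.04 ± 0.19 in NGT, a difference of 0.21 that was -0.05 with dim input probes included. Peg3 was at -0.40 ± 0.11 and -0.54 ± 0.29, where the low NGT mean rested on replicate 1 at -0.86. Without that array the Peg3 difference was -0.02 instead of 0.14. Over only the 16 probes with a value on every array it was 0.27, an alternative chosen after the data had been seen. Mest (-0.06 ± 0.14 and -0.20 ± 0.16), Igf2r-Airn (0.39 ± 0.08 and 0.27 ± 0.14) and Snrpn (0.06 ± 0.17 and -0.08 ± 0.10) differed by 0.14, 0.12 and 0.14, and each was below 0 after loess, as was Peg3. Mest differed by 0.05 without NGT replicate 1, Igf2r-Airn by 0.04 without NGT replicate 3 and Snrpn by 0.05 without IGT replicate 3. The windows with the most probes differed least: 0.07 in Kcnq1-Cdkn1c (0.21 ± 0.08 and 0.14 ± 0.05) and 0.04 in Dlk1-Meg3 (-0.14 ± 0.03 and -0.18 ± 0.18). Both were below 0 after loess, after quantile normalization and with centring on the kept probes. The Dlk1-Meg3 difference was -0.06 without NGT replicate 3 and 0.10 without NGT replicate 1.

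**Figure D4:**
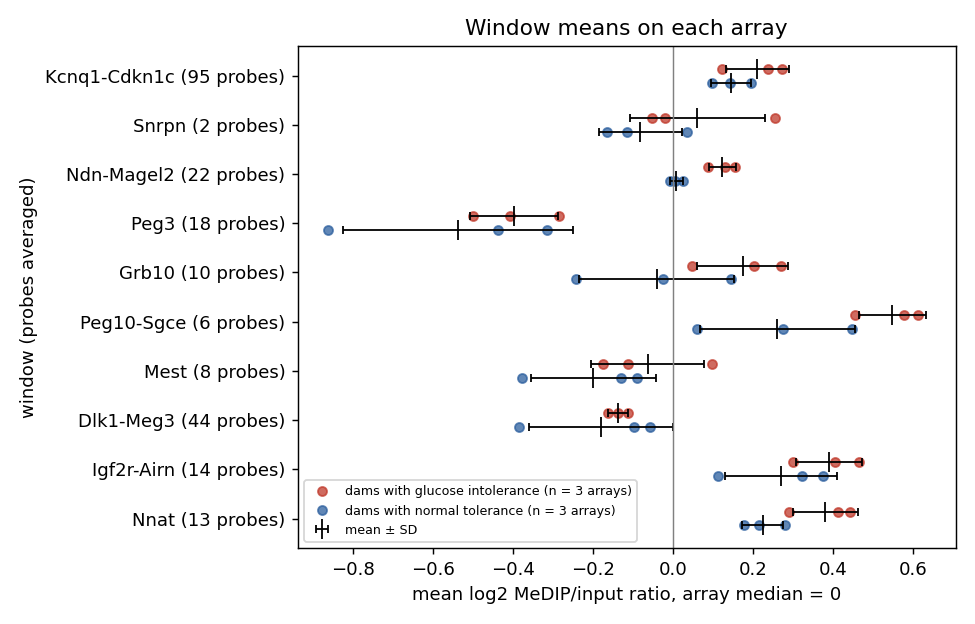
Mean ratio over the kept probes of each window (horizontal axis, log2 MeDIP over input) on each array; red points are the 3 IGT arrays, blue points the 3 NGT arrays, and black ticks with bars the group mean ± SD. The groups are apart in Peg10-Sgce, Nnat and Ndn-Magel2 and overlap in the other 7 windows. Of all runs on the array, 17.5% are apart with IGT higher.

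Among single runs the lowest p for a higher ratio in IGT belonged to Ndn-Magel2, at chr7:69564570-69566174 (7 probes). Its ratios were -0.14, 0.11 and -0.02 in IGT and -0.44, -0.32 and -0.34 in NGT. Every IGT array lay above every NGT array. The limma difference was 0.35 ± 0.12 (SE), with an unadjusted p of 0.0209 and an adjusted p of 0.265. Of the 7 probes 5 were higher, the first of them by 0.94 and the second by 0.81, while the last had MeDIP signal not well above background on any array. Relative to the array medians the MeDIP signal was lower in IGT, by 0.15, and the input was lower by more, by 0.37. With 1 array left out the difference ran from 0.28 to 0.41. Over all alternatives it lay between 0.21 and 0.51, with an adjusted p in limma from 0.0445 with normexp to 0.849 with scan as a random block.

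In Kcnq1-Cdkn1c the run at chr7:150085373-150086031 (4 probes) had -0.01, 0.01 and 0.02 in IGT and -0.13, -0.43 and -0.32 in NGT. The IGT arrays were nearly identical and all above NGT. The difference was 0.31 ± 0.12 (SE), with an unadjusted p of 0.0379 and an adjusted p of 0.294 in limma. It too went with a lower input (-0.27) and a slightly lower MeDIP signal (-0.09). It was 0.17 after loess (adjusted p of 0.552 in limma) and 0.36 with normexp (0.0415). With dim input probes included the run merged with the next, at chr7:150086659-150087107, which differed by 0.07 in the reported fit. The merged run of 9 probes differed by 0.03 (adjusted p of 0.917 in limma). With gaps of up to 1000 bases these runs also merged, and the difference was 0.21 (0.426).

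The third was the Peg3 run at chr7:6682361-6684230 (8 probes), with -0.24, -0.35 and 0.11 in IGT and -0.93, -0.35 and -0.53 in NGT. The groups did not overlap, but IGT replicate 2 and NGT replicate 2 differed by less than 0.01. The difference was 0.44 ± 0.19 (SE), with an unadjusted p of 0.0448 and an adjusted p of 0.308 in limma. Here the MeDIP signal differed by 0.29 and the input by -0.03. Of the 8 probes 7 were higher, but the probe at 6683522 differed by 1.90, with MeDIP signal well above background on 1 of 3 NGT arrays. After raising each dim MeDIP spot to its array's lowest signal above background, the difference of the run was 0.20, and in the authors' deposited table it was also 0.20.

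Among runs with a lower ratio in IGT, none reached an unadjusted p of 0.05. The Ndn-Magel2 run at chr7:69492935-69493596 (4 probes) had 0.19, -0.28 and -0.46 in IGT and 0.18, 0.05 and 0.43 in NGT, and the groups overlapped. Its difference of -0.41 (unadjusted p of 0.0633, adjusted p of 0.337 in limma) rested on which spots were used. Of its 12 IGT spots 5 were marked non-uniform and left out, and with them kept the difference was -0.12. In the authors' deposited table it was 0.08. Among its 4 probes 2 were higher in IGT and 1 was lower, by 1.26. The remaining probe gave no difference, so the group means of the run were not taken over the same probes.

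The Dlk1-Meg3 run at chr12:110782317-110783933 (6 probes) was the only one whose groups were apart with IGT lower. Its ratios were -0.89, -0.98 and -0.82 in IGT and -0.62, -0.57 and -0.76 in NGT. The difference was -0.25 ± 0.12 (SE), with an unadjusted p of 0.0704 and an adjusted p of 0.349 in limma. Of its probes 4 were lower and 2 higher. The MeDIP signal differed by -0.16 and the input by 0.21. Leaving out each array in turn gave -0.30 to -0.20, and the value was -0.29 in the authors' deposited table. Over all alternatives it lay between -0.43, with dim MeDIP spots raised, and -0.17, with normexp. The probe at 110783631 in this run had MeDIP signal well above background on 3 IGT arrays and 0 NGT arrays.

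The third was the Peg3 run at chr7:6658175-6658685 named above. Its difference was -0.25 ± 0.13 (SE), with an adjusted p of 0.387 in limma. Its 3 probes did not move together, at -0.92, -0.63 and 0.72, each with an unadjusted p under 0.05. The mean of this run is thus a poor summary of its probes. With runs joined over gaps of up to 1000 bases it merged with its neighbours and the difference was 0.07.

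Single probes showed larger differences than runs. The lowest p among those higher in IGT was at Nnat, chr2:157385984-157386028, with ratios of 1.13, 0.92 and 1.23 in IGT and 0.53, -0.12 and 0.05 in NGT. All IGT arrays were above all NGT arrays, and the difference was 0.94 ± 0.24 (SE; adjusted p of 0.162 in limma). Its input differed by -0.64 and its MeDIP signal by 0.18 relative to the array medians. The next probe of this run, at 157386189, was also higher (0.62), while the first, at 157385169, was lower by 1.18, so the run itself differed by only 0.15.

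The Ndn-Magel2 probe at chr7:69564774-69564818, inside the run named above, had 1.24, 1.46 and 1.34 in IGT and 0.77, 0.44 and 0.39 in NGT. Its difference was 0.81 ± 0.21 (SE; adjusted p of 0.165 in limma), with input lower in IGT by 0.82 and MeDIP signal by 0.13. The Kcnq1-Cdkn1c probe at chr7:150483447-150483491 had -0.27, 0.44 and -0.16 in IGT and -0.84, -1.06 and -0.50 in NGT. Its difference was 0.80 ± 0.27 (SE; adjusted p of 0.226 in limma), and its input was lower by 0.57. In these 3 probes most of the ratio difference lay in a lower input signal.

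Of probes lower in IGT, that of Dlk1-Meg3 at chr12:110690933-110690977 had -0.23, -0.66 and -0.39 in IGT and 0.20, 0.41 and 0.76 in NGT. The groups had opposite signs. The difference was -0.88 ± 0.24 (SE; adjusted p of 0.172 in limma), with the MeDIP signal differing by -0.87 and the input by 0.14. The Mest probe at chr6:30687625-30687677 had 0.42, 0.14 and 0.05 in IGT and 0.94, 0.97 and 0.91 in NGT. Its difference was -0.74 ± 0.20 (SE; adjusted p of 0.182 in limma), with -0.70 in the MeDIP signal and 0.16 in the input. The other 2 probes of the Mest run were higher in IGT, by 0.43 and 0.33.

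The Peg3 probe at chr7:6658175-6658219 had -0.34, -0.71 and -0.67 in IGT and 0.36 and 0.33 on NGT replicates 2 and 3, the spot of NGT replicate 1 being non-uniform. Its difference was -0.92 ± 0.25 (SE; adjusted p of 0.181 in limma), with both channels contributing (MeDIP -0.77, input 0.23). The values of the authors' deposited table had slopes of 0.453 to 0.599 on the scanner log2 ratio. In that table the differences of these 6 probes kept their direction, at 0.45, 0.58 and 0.45 for the Nnat, Ndn-Magel2 and Kcnq1-Cdkn1c probes, and -0.40, -0.43 and -0.55 for the Dlk1-Meg3, Mest and Peg3 probes. The table comes from the same arrays on which these probes were picked, so the kept direction is not an independent check.

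Across the 38 runs the arrays correlated at r = 0.909 to 0.927 within IGT, at 0.811 to 0.880 within NGT and at 0.735 to 0.946 between groups. Across all runs of the array these values were 0.913 to 0.954, 0.894 to 0.924 and 0.783 to 0.947. The points share probes and scans and are a description only.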

How the data were processed

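Methylated DNA (Cy5) and input DNA (Cy3) of each sample were hybridised together, per the labels' protocols, with the dyes never swapped, which leaves any dye bias in the ratio. The authors deposited scanner output of Agilent Feature Extraction 11.0.1.1 on build mm9, whose processed intensity values were background-subtracted and linearly dye-normalized, per the file headers. Their deposited log10 ratio served as a check. The authors also deposited a log2 series table, made by steps not given in the sources used here. The medians of its arrays were 0.027 to 0.038, and it correlated with the scanner log2 ratios at r = 0.813 to 0.892 over probes, so it too is MeDIP over input. Its values had an SD over probes of 0.737 to 0.779, against 1.09 to 1.53 for the scanner ratios, and slopes of 0.453 to 0.599 on them. How it was scaled and centred is not given in the sources used here.

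The log2 ratio of processed Cy5 over Cy3 had each array's median over non-control probes subtracted. Non-uniform spots (1.77% of all, 1.91% of imprinted spots) were set to missing. A probe was tested with at least 1 value per group and 3 in all, which gave 115581 probes. That rule was chosen after the files had been read, in place of at least 2 values per group, to stay close to earlier processing of these data. Both rules are reported. Differences (IGT minus NGT) were tested with limma 3.58.1 (lmFit, eBayes) in R 4.3.3 and adjusted over all probes or all runs. The test scripts were tested on simulated data. Figures used matplotlib.

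The windows, gene list and tests were chosen with earlier results of these data known. Named were the run with the highest ratio in each window, and the 3 runs and 3 probes with the lowest p in each direction; further runs, the probe lengths and the steps between runs were picked after their values had been seen. Normexp used median signals, since the files used here hold no mean signals, although mean signals had been planned. A scan stamp stood in for the slide. Other alternatives are given in the closing section.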

Additional observations from a re-analysis of the deposited data

How the results depend on the processing

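No scan held both groups, input was dimmer in IGT, and 0 spots of the imprinted probes were saturated. Of 230 imprinted probes, the count at an adjusted p of 0.05 (0 in the reported limma fit) was 1 after quantile normalization (0.435%, against 1.48% of all probes), 6 with normexp (2.61%, 6.01%), 6 in the authors' deposited table (2.59%, 5.41%), 10 with array weights (4.35%, 5.86%) and 0 to 3 with 1 array left out, 3 being without NGT replicate 1 (1.31%, 3.32%). Probes at an unadjusted p under 0.05 (35) numbered 53 with normexp (23.0%, 28.2%), 53 in the deposited table (22.8%, 29.0%), 55 with dim input probes included (16.3%, 16.3%), 70 with array weights (30.4%, 28.9%) and 6 with scan as a random block (2.61%, 5.21%). It ran from 16 without NGT replicate 3 to 66 without NGT replicate 1, with 23 without IGT replicate 2 and 20 without IGT replicate 3. Of 38 runs, 2 passed the adjusted threshold with normexp and 1 in the deposited table, where 9.88% and 8.17% of all runs passed. The latter was the Kcnq1-Cdkn1c run at chr7:150646464-150646943 (0.60, adjusted p of 0.0499 in limma). Runs at an unadjusted p under 0.05 (3) numbered 7 after quantile normalization, 10 with normexp, 6 in the deposited table, 7 with dim input probes included, 6 with both channels above background, 0 with scan as a random block, 5 with a trended robust variance prior and 11 with array weights. All runs reached it at 5.21% with the scan block and at 15.7% (dim input probes included) to 35% (normexp) in the others. With 1 array left out they ran from 1 (without IGT replicate 2, and without IGT replicate 3) to 8 (without NGT replicate 1). The median probe difference was -0.045 after loess. The direction turned for the Ndn-Magel2 run at chr7:69492935-69493596 in the deposited table (0.082) and for the highest Peg3 run with gaps of up to 1000 bases (0.072). The causes were not tested. An alternative with at least 2 values per group was added after the data had been seen. Under it 34 probes reached an unadjusted p under 0.05 (15.04%, against 15.95% of all probes). For runs the count was 3, where 15.81% of all runs reached that p. The adjusted threshold was passed by 0 probes (0.000878% of all probes) and 0 runs (0% of all runs). With the replicate number as a replicate block, 2 probes (0.870%, against 3.54% of all probes) and 0 runs (4.27% of all runs) passed the adjusted threshold, and 8 runs an unadjusted p under 0.05 (25.9% of all runs). Deviations of same-numbered samples correlated at 0.57, 0.54 and 0.04 for replicates 1, 2 and 3. These values do not settle whether the numbers mark pairs. The reported fit did not treat them as pairs.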
